A study of Mus musculus with 9 samples.

Results

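The rod phototransduction activation cascade was followed through the transcripts of 9 genes in whole retina of mice at postnatal day (P) 21: the 3 subunits of rod transducin (Gnat1, Gnb1 and Gngt1), the 3 subunits of rod cGMP phosphodiesterase (Pde6a, Pde6b and Pde6g), the 2 subunits of the rod cGMP-gated channel (Cnga1 and Cngb1), and rod arrestin (Sag). The members were taken by gene symbol from the 55487 genes of the expression table, and each symbol occurred once. The rule itself used no expression value. In a rod, light-activated visual pigment makes the transducin alpha subunit exchange GDP for GTP and leave its beta-gamma partner. The alpha subunit then relieves phosphodiesterase of its inhibitory gamma subunits, cGMP falls and the cGMP-gated channels of the outer segment close. Arrestin caps the phosphorylated pigment and ends the signal, so it is grouped with the cascade as its brake.

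Transcript levels were compared between 3 genotypes with 3 libraries each, and each library held RNA from the retinas of a pair of animals. Tet tcKO retinas were loxp/loxp at Tet1, Tet2 and Tet3, the genes of the enzymes that oxidise 5-methylcytosine, and carried the Chx10::Cre-GFP transgene, which is active in retinal progenitor cells. tHet retinas carried the same transgene and were loxp/+ at the same genes. Cre- retinas had no transgene and are labelled wild type. All animals were on a C57 BL/6J background at the same age. The Chx10::Cre-GFP transgene is known to be mosaic, and the Cre- animals came from other breeders than the Cre+ animals, so genotype and breeding line cannot be told apart in comparisons with Cre-. The Cre+ breeding was arranged to give animals with both copies of the transgene.

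Each library held between 9627927 and 21108256 reads on genes, and 1 read was worth between 0.0474 and 0.104 CPM, the reads of a gene scaled to a common library total, so every member was measured far above the counting floor. Tet3 transcript was at 213, 268 and 223 CPM in Cre-, at 268, 288 and 155 CPM in tHet and at 108, 152 and 99.2 CPM in Tet tcKO. Tet3 (log2FC -0.99, limma adjusted p = 0.0174), Tet1 (log2FC 0.22) and Tet2 (log2FC 0.25) were not called in Tet tcKO against Cre-, and reads outside the deleted exons count toward all 3 genes, so these totals do not check the deletion. A ribosomal RNA gene, CT010467.1, took 28.7% of the reads of Tet tcKO replicate 3, 3.72% of those of tHet replicate 3 and 0.226% or less elsewhere. Leaving that gene out of the library totals moved the median log2FC of all genes from 0.00 to 0.14 in Tet tcKO against Cre- and from -0.06 to 0.07 against tHet. Markers of rods, cones, bipolar, amacrine, ganglion and horizontal cells and of Müller glia were detected in every genotype, as the label of whole retina calls for.

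Promoter sequence was available here from RefSeq (GRCm38.p6) for 6 of the 9 members, and 4 of these windows are printed to show the letters that homeodomain and leucine zipper factors of photoreceptors are known to bind. Each window runs from 250 bases before to 50 bases after the annotated start, on the strand of the gene. Capitals mark the letters TAATCC (or GGATTA on the other strand), the core known for the factor CRX, and TGCTGA (or TCAGCA), letters known for NRL. The upper pair belongs to the members that were not called in Tet tcKO and the lower pair to members that fell.
Gngt1 (chr6:3993758-3994057, plus strand): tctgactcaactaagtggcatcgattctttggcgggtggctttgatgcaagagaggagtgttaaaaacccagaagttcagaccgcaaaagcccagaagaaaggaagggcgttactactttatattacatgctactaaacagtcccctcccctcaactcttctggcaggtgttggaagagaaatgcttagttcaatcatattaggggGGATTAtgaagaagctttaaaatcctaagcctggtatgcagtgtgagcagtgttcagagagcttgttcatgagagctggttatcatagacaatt
Sag (chr1:87803430-87803729, plus strand): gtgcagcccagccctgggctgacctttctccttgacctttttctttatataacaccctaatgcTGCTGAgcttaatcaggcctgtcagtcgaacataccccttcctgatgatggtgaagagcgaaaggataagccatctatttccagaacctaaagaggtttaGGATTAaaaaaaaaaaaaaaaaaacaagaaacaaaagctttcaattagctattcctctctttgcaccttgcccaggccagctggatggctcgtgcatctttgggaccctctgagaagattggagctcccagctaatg
Cngb1 (chr8:95306536-95306835, minus strand): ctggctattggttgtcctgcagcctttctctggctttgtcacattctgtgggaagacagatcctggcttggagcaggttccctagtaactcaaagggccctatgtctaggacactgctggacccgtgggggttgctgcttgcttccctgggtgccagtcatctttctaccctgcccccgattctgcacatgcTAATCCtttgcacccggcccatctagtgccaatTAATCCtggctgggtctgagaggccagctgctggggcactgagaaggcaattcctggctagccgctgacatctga
Pde6b (chr5:108388123-108388422, plus strand): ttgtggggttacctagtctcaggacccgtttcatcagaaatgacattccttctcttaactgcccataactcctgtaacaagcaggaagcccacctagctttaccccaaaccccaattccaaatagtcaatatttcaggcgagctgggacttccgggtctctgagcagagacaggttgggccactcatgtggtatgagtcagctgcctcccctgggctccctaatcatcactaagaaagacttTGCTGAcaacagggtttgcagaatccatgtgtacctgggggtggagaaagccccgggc
The CRX core was found in 4 of the 6 windows, those of Gngt1, Sag, Cngb1 and Cnga1, against 7.1% of 32851 mouse promoters of the same length. In the Cngb1 window it occurred at positions -58 and -25 from the start. The NRL letters were found in the windows of Pde6b and Sag, against 19.5% of all promoters, and 1.4% of promoters held both motifs, as the Sag window did. A further search, for AAGTCA (or TGACTT), letters known for NR2E3, matched 0 of the 6 windows and 15.1% of all promoters. The CRX core thus occurred both in windows of members that fell and in those of the 2 members that were not called. Among 4 cone counterparts with a promoter entry, the CRX core occurred in Gnat2 alone. The starts are those of RefSeq. By the gene positions used in this text, the windows of Cnga1 and Gnat2 and most of that of Gngt1 lie inside the gene. A match is a description of these letters only.

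The cascade as a whole took 2.58%, 2.59% and 2.32% of all reads in the Cre- libraries and 2.52%, 2.28% and 2.20% in the tHet libraries. In the Tet tcKO libraries it took 0.458%, 0.883% and 0.525%, or 0.737% in replicate 3 once CT010467.1 was left out. All 9 members passed the filter on low values, and 7 were called lower in Tet tcKO than in Cre- by limma, at a log2FC of -1 or below and an adjusted p under 0.01 (background: 1.57% of the 21330 genes tested were called lower). The members not called were Gngt1 and Sag. In all 9 members every Tet tcKO library lay below every Cre- library, an order that 9.6% of all genes tested also had. For Gngt1 that order was lost once CT010467.1 was left out. Its Tet tcKO libraries were then at 703, 683 and 798 CPM and its Cre- libraries at 720, 790 and 866 CPM. The median log2FC of the members was -2.33, beside 0.00 for all genes tested. Against tHet, with which the same Tet tcKO libraries were compared, the same 7 members by name were called lower (background 1.61%), with a median log2FC of -2.24 beside -0.06. Every Tet tcKO library lay below every tHet library in 8 of the 9 members, Gngt1 being the exception, an order that 9.68% of all genes had. The number of genes called lower depended on the library left out: 334 against Cre- became 148, 457 and 99 without Tet tcKO replicates 1, 2 and 3, and 343 against tHet became 139, 509 and 89. It was 172 against Cre- without Cre- replicate 3, and against tHet it was 170, 219 and 650 without tHet replicates 1, 2 and 3 and 515 without Cre- replicate 1. In bulk retina, fewer rods and less RNA per rod cannot be told apart.

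**Figure D1:**
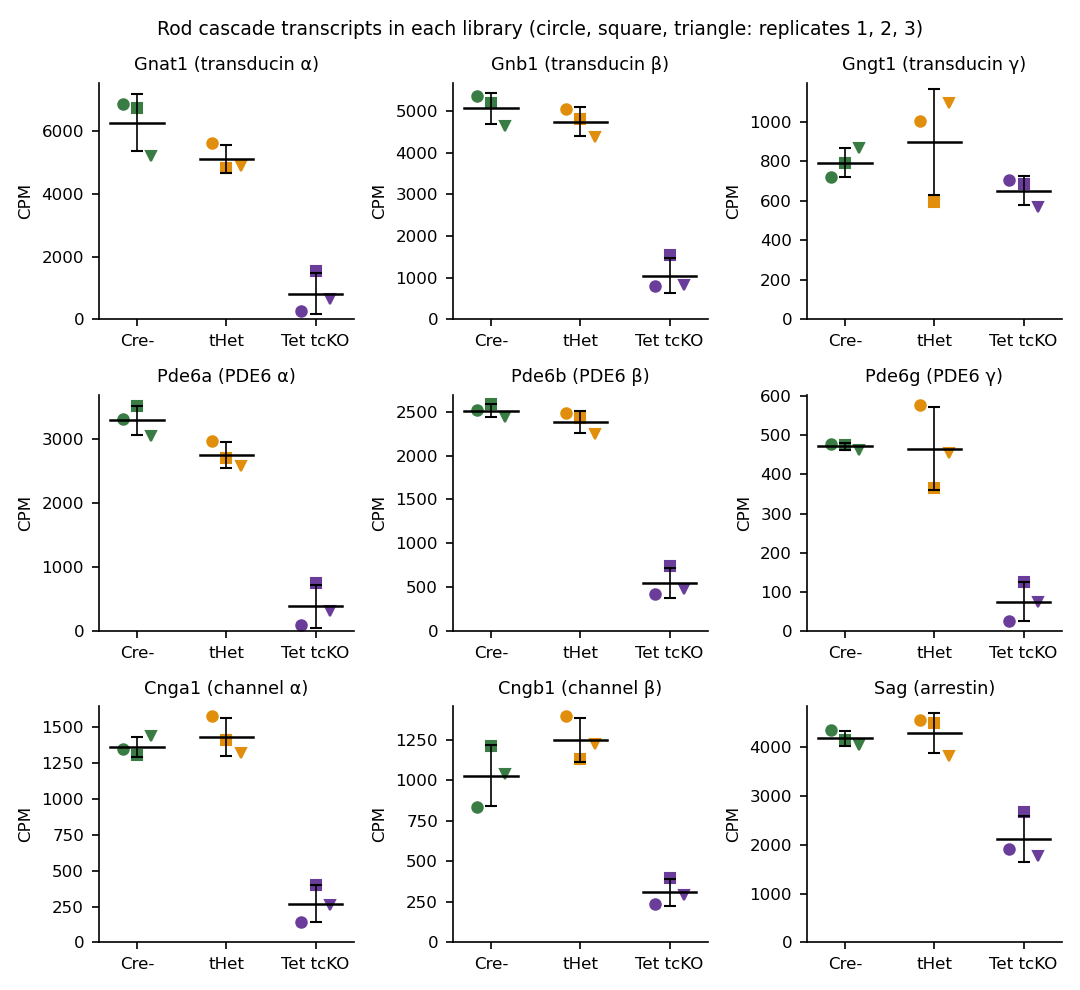
CPM (linear axis from 0) of each of the 9 members in each library of Cre-, tHet and Tet tcKO; circles, squares and triangles are replicates 1, 2 and 3, horizontal bars the mean and error bars the SD (n = 3). The Tet tcKO libraries sit apart from both other genotypes in every panel but that of Gngt1, where they lie within the span of the tHet libraries except for replicate 3.

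Transducin links the pigment to phosphodiesterase, and its 3 subunits differed widely in how much transcript was left. Gnat1 (ENSMUSG00000034837.12, chr9:107674474-107679712) encodes the alpha subunit that binds GTP. Its level was 6853, 6738 and 5217 CPM in Cre-, 5629, 4823 and 4875 CPM in tHet, and 258, 1543 and 659 CPM in Tet tcKO. The Tet tcKO libraries lay well below all others, and replicate 2 held the most transcript among them. The mean in Tet tcKO was 13.1% of that in Cre-, with a log2FC of -3.28 ± 0.46 (SE, limma adjusted p = 8.24e-05). Against tHet, the log2FC of Gnat1 was -2.99 (limma adjusted p = 0.000268). That call was lost without Tet tcKO replicate 3 (limma adjusted p = 0.0141). The log2FC of Gnat1 against Cre- was -2.63 without Tet tcKO replicate 1 and -3.91 without replicate 2.

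Gnb1 (ENSMUSG00000029064.15, chr4:155491361-155559269) encodes the beta subunit, which is also used by other heterotrimeric G proteins throughout the body. Gnb1 was at 5365, 5186 and 4656 CPM in Cre-, at 5047, 4818 and 4371 CPM in tHet and at 791, 1535 and 835 CPM in Tet tcKO. The groups did not overlap, and the log2FC was -2.33 ± 0.34 against Cre- (SE, limma adjusted p = 0.000141) and -2.24 against tHet (limma adjusted p = 0.000268). In Tet tcKO, 20.8% of the Cre- mean remained.

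Gngt1 (ENSMUSG00000029663.10, chr6:3993792-3997436), the rod gamma subunit that tethers the complex to disc membranes, stood apart from its partners. Its transcript was at 719, 790 and 865 CPM in Cre-, at 1005, 592 and 1095 CPM in tHet and at 703, 682 and 569 CPM in Tet tcKO. The Tet tcKO values were just below the Cre- values, but overlapped those of tHet, in which the libraries differed by 1.85-fold. The log2FC was -0.28 (95% interval -0.84 to 0.28, limma adjusted p = 0.758) against Cre- and -0.42 (95% interval -0.98 to 0.14, limma adjusted p = 0.474) against tHet. The lower bound against Cre- thus lies above -1, the size required of a called change. Leaving out CT010467.1 put the log2FC of Gngt1 against Cre- at -0.12, and the Tet tcKO and Cre- libraries then overlapped. The promoter window of Gngt1 printed above held 1 CRX core, at position -44 from the RefSeq start. By the gene position given in this paragraph, that core lies inside the gene.

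Phosphodiesterase hydrolyses cGMP, and all 3 rod subunit transcripts fell. Pde6a (ENSMUSG00000024575.16, on chromosome 18), a catalytic subunit, was at 3313, 3514 and 3054 CPM in Cre-, at 2976, 2707 and 2573 CPM in tHet and at 94.7, 742 and 310 CPM in Tet tcKO. No other member was left at so small a share of its Cre- level, 11.6%, and none varied as widely among the Tet tcKO libraries. The log2FC of Pde6a was -3.55 ± 0.46 against Cre- (SE, limma adjusted p = 4.2e-05) and -3.29 against tHet (limma adjusted p = 0.000122). Without Tet tcKO replicate 3, the call against tHet was lost (limma adjusted p = 0.012). Without replicate 1 the log2FC against Cre- was -2.78, without replicate 2 it was -4.26, and the gene was called in both cases.

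Pde6b (ENSMUSG00000029491.7, chr5:108388391-108432397) encodes the other catalytic subunit of the rod enzyme. Pde6b was at 2517, 2585 and 2436 CPM in Cre-, at 2487, 2425 and 2249 CPM in tHet and at 421, 742 and 477 CPM in Tet tcKO. Libraries of Cre- and tHet were close to each other, and those of Tet tcKO held 21.8% of the Cre- mean (log2FC -2.24 ± 0.29, SE, limma adjusted p = 3.23e-05). Pde6g (ENSMUSG00000025386.2, chr11:120447605-120453500) encodes the small inhibitory subunit that holds the catalytic pair inactive in darkness. Its transcript was at 478, 475 and 462 CPM in Cre-, at 577, 366 and 454 CPM in tHet and at 25.0, 125 and 72.9 CPM in Tet tcKO. The log2FC of Pde6g was -2.94 ± 0.37 (SE, limma adjusted p = 2.68e-05), with 15.7% of the Cre- mean left, and it was -2.30 without Tet tcKO replicate 1. Against tHet, the log2FC was -2.17 for Pde6b and -2.89 for Pde6g, and both were called by limma.

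The cGMP-gated channel carries the dark current of the outer segment. Cnga1 (ENSMUSG00000067220.12, chr5:72603696-72644275), its pore-forming subunit, was at 1346, 1304 and 1436 CPM in Cre-, at 1576, 1409 and 1317 CPM in tHet and at 142, 401 and 262 CPM in Tet tcKO. No Tet tcKO library reached a Cre- or tHet library, and the log2FC was -2.46 ± 0.30 (SE, limma adjusted p = 2.3e-05). Cngb1 (ENSMUSG00000031789.17, chr8:95239045-95306585), the modulatory subunit, was at 837, 1215 and 1038 CPM in Cre-, at 1401, 1133 and 1223 CPM in tHet and at 235, 399 and 291 CPM in Tet tcKO. Cngb1 kept 29.9% of its Cre- mean, more than Cnga1 with 19.7%. Its log2FC was -1.76 ± 0.26 against Cre- (SE, limma adjusted p = 0.000179) and -2.05 against tHet. That of Cnga1 against tHet was -2.53, and limma called both.

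Sag (ENSMUSG00000056055.13, chr1:87803680-87845158), rod arrestin, was at 4342, 4140 and 4039 CPM in Cre-, at 4542, 4482 and 3815 CPM in tHet and at 1913, 2662 and 1777 CPM in Tet tcKO. Every Tet tcKO library was below every other library, and the mean was 50.7% of that in Cre-. The log2FC was -1.001 (95% interval -1.69 to -0.31) and Sag was not called (limma adjusted p = 0.0848). In tests on the recovered reads the adjusted p was 0.00790 by edgeR and 4.14e-08 by DESeq2, while the log2FC of -0.988 and -0.998 fell just short of the size required. Sag was thus not called in any of the 20 alternative settings, in which its log2FC ranged from -1.18 to -0.84 and its adjusted p from 4.14e-08 to 0.265. Against tHet, its log2FC was -1.03 (limma adjusted p = 0.0767).

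**Figure D2:**
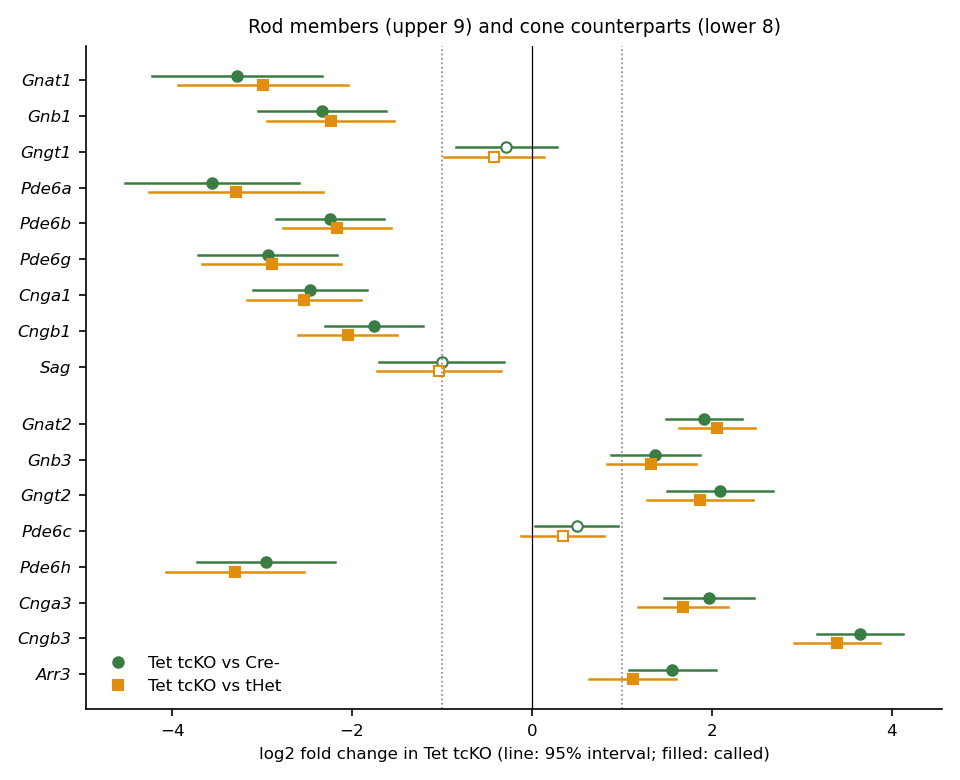
Log2FC in Tet tcKO against Cre- (green circles) and against tHet (orange squares) for the 9 members and, below them, their 8 cone counterparts; lines are 95% intervals from limma, filled symbols are called genes and dotted lines mark a log2FC of -1 and 1. All members lie left of 0, with Gngt1 and Sag unfilled, and 6 cone counterparts are called on the right with Pde6h called on the left.

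The amounts left ran from 11.6% of the Cre- mean for Pde6a to 82.3% for Gngt1. The order of the 9 members by the share left was the order of their spread among the Tet tcKO libraries, from the widest to the narrowest, and both come from the same values. The highest of the 3 Tet tcKO libraries exceeded the lowest by 7.84-fold for Pde6a, 5.97-fold for Gnat1 and 4.99-fold for Pde6g. That spread was 2.82-fold for Cnga1 and between 1.70-fold and 1.94-fold for Gnb1, Pde6b and Cngb1. For Sag it was 1.498-fold and for Gngt1 1.24-fold. Among the Cre- libraries, the spread of the members was between 1.04-fold (Pde6g) and 1.45-fold (Cngb1).

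The 7 called members had the same order among the Tet tcKO libraries: replicate 1 held the least, replicate 3 was between, and replicate 2 held the most. As percent of the Cre- mean, Gnat1 was at 4.12, 24.6 and 10.5 in replicates 1 to 3, Pde6a at 2.88, 22.5 and 9.42, and Pde6b at 16.8, 29.5 and 19.0. Without CT010467.1 the order held for all but Cngb1, which then put replicate 3 above replicate 2, and Sag took the order of the others. Nrl, the factor that specifies rods, was at 63.4, 144 and 92.4 CPM and Nr2e3, its target that represses cone genes, at 36.5, 85.7 and 60.9 CPM in the same libraries, in the same order. The exons of Nr2e3 overlap those of another gene on its strand, with which reads may be shared. Crx, a factor shared by rods and cones, was at 991, 982 and 690 CPM there and was not called against Cre- (log2FC -0.34, limma adjusted p = 0.665). With CT010467.1 left out, Crx was at 992, 982 and 968 CPM in the Tet tcKO libraries. Nrl was then at 63.5, 145 and 130 CPM and Nr2e3 at 36.5, 85.7 and 85.4 CPM. Replicates 2 and 3 were thus nearly equal for Nr2e3. The part of these factors in the spread of the cascade was not tested.

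**Figure D3:**
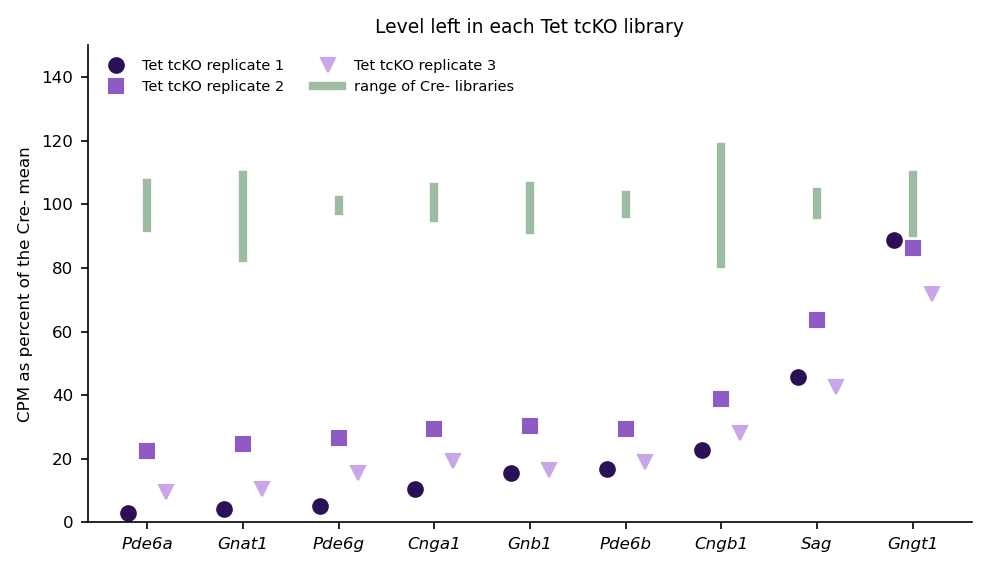
CPM of each member in the 3 Tet tcKO libraries as percent of the Cre- mean (linear axis from 0), with members ordered by their mean; green bars span the 3 Cre- libraries. The points rise from between 2.88% and 22.5% for Pde6a to between 71.9% and 88.8% for Gngt1, and replicate 2 is the highest for all members but Gngt1.

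Proportions between subunits were read as ratios of CPM within a library, which need no scaling between libraries. The ratio of Gnat1 to Gngt1 was 9.52, 8.53 and 6.03 in Cre- and 0.368, 2.26 and 1.16 in Tet tcKO. The ratio of Pde6a to Pde6b was 1.32, 1.36 and 1.25 in Cre- and 0.225, 1.00 and 0.650 in Tet tcKO. The ratio of Sag, the brake, to Gnat1 was 0.634, 0.614 and 0.774 in Cre- and 7.41, 1.73 and 2.698 in Tet tcKO. In these 3 ratios the libraries of Cre- and Tet tcKO did not overlap. Ratios of CPM do not account for gene length, so they compare libraries and not the levels of the genes in a ratio. The other 3 ratios computed, Gnat1 to Gnb1, Pde6g to Pde6b and Cnga1 to Cngb1, were also lower in every Tet tcKO library than in every Cre- library. The log2 differences of these 6 ratios from Cre- were -2.996 for Gnat1 to Gngt1, -1.31 for Pde6a to Pde6b, -0.95 for Gnat1 to Gnb1, -0.71 for Cnga1 to Cngb1, -0.69 for Pde6g to Pde6b and 2.28 for Sag to Gnat1. Each had a two-sided exact permutation p = 0.1, the smallest that 3 against 3 libraries can give (adjusted p = 0.1 over the 6 ratios). Against tHet, Gnat1 to Gnb1 (exact permutation p = 0.2) and Pde6g to Pde6b (exact permutation p = 0.3) overlapped.

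Cones run the same cascade with their own subunits, which served as the comparison within the same libraries. Of the 8 cone counterparts, 6 were called higher in Tet tcKO than in Cre- by limma (background: 2.03% of genes called higher), 1 was called lower and 1 was not called. Their summed level was between 556 and 666 CPM in Cre-, between 676 and 715 CPM in tHet and between 1652 and 2548 CPM in Tet tcKO. Cngb3, the cone channel's modulatory subunit, rose from 60.5, 77.1 and 74.997 CPM in Cre- to 1110, 948 and 671 CPM (log2FC 3.65 ± 0.23, SE, limma adjusted p = 2.28e-09). Gnat2, cone transducin alpha, rose from 67.3, 68.1 and 58.1 CPM to 290, 217 and 230 CPM (log2FC 1.91). Gngt2 (log2FC 2.09), Cnga3 (1.97), Arr3, the cone arrestin (1.56), and Gnb3 (1.37) also rose. Against tHet the same 6 genes were called higher (background 1.39%).

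The cone phosphodiesterase genes did not follow. Pde6c, the catalytic subunit of the cone enzyme, was at 116, 127 and 107 CPM in Cre- and at 172, 209 and 123 CPM in Tet tcKO, and was not called (log2FC 0.50, 95% interval 0.04 to 0.96, limma adjusted p = 0.250). Pde6h, the inhibitory subunit assigned to the cone enzyme, fell from 69.3, 97.2 and 81.2 CPM to 4.39, 24.1 and 9.45 CPM (log2FC -2.95, limma adjusted p = 2.38e-05). Its size of change against Cre- and its order among the Tet tcKO libraries were those of Pde6g, the rod inhibitory subunit, with a log2FC of -2.94. Against tHet the log2FC was -3.31 for Pde6h and -2.89 for Pde6g. The ratio of Pde6g to Pde6h was 6.91, 4.89 and 5.68 in Cre- and 5.69, 5.18 and 7.71 in Tet tcKO, with overlapping values (exact permutation p = 1).

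The other 8 rod to cone ratios were lower in every Tet tcKO library than in every Cre- and tHet library (exact permutation p = 0.1, the smallest possible, adjusted p = 0.113 over 9 ratios). The ratio of Gnat1 to Gnat2 was 102, 98.9 and 89.9 in Cre- and 0.891, 7.11 and 2.86 in Tet tcKO. Replicate 1 had the lowest of these ratios. The ratio of Cngb1 to Cngb3 was 13.9, 15.8 and 13.8 in Cre- and 0.211, 0.421 and 0.434 in Tet tcKO, and so lay below 1 in all 3 libraries. A ratio of 1 does not stand for equal levels, as gene length is not accounted for. Gngt1, which was not called itself, had a ratio to Gngt2 of 23.5, 22.8 and 24.1 in Cre- and 3.45, 4.71 and 5.52 in Tet tcKO. The ratio of Sag to Arr3 was 52.9, 29.6 and 44.8 in Cre- and 6.857, 7.198 and 6.835 in Tet tcKO, which was close to uniform among the knockout libraries.

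**Figure D4:**
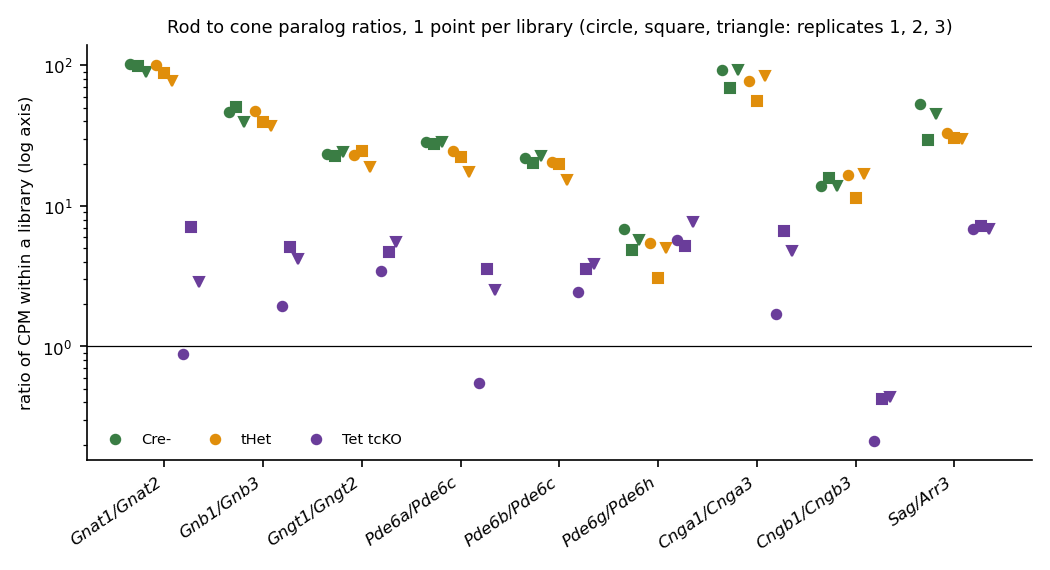
Ratio of CPM of a rod gene to its cone counterpart within each library (log axis) for 9 pairs in Cre-, tHet and Tet tcKO; circles, squares and triangles are replicates 1, 2 and 3 and the line marks a ratio of 1. The Tet tcKO points lie below both other genotypes for 8 pairs, overlap them for Pde6g to Pde6h, and lie below 1 in all 3 libraries for Cngb1 to Cngb3. Gene length is not accounted for.

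Levels of different genes were compared per kilobase of annotated exon (CPM per kb), a scale that counts all exons of a gene whether or not the retina uses them. In Cre-, Gnat1 was highest with 2070 ± 301 CPM per kb (SD, n = 3), followed by Gnb1 with 1188 ± 86.3 and Pde6a with 703 ± 49.1. Pde6b (500 ± 14.9) and Sag (469 ± 17.3) were next and overlapped in their libraries. Gngt1 (225 ± 20.8), Cnga1 (215 ± 10.7) and Pde6g (204 ± 3.88) came next and also overlapped, and Cngb1 was lowest with 110 ± 20.2. In Tet tcKO the top of the order was compressed, with Gnat1 at 271 ± 217, Gnb1 at 247 ± 97.9, Sag at 238 ± 53.5 and Gngt1 at 185 ± 20.6 CPM per kb, all overlapping. Pde6b (109 ± 34.1) and Pde6a (81.6 ± 70.4) followed, and Cnga1 (42.4 ± 20.5), Cngb1 (33.0 ± 8.95) and Pde6g (32.0 ± 21.5) were lowest. The cone gene Cngb3, with 193 ± 47.1 CPM per kb, then took rank 4 by its mean among the 17 rod and cone genes, from rank 15 in Cre-. Its Tet tcKO libraries, from 143 to 236 CPM per kb, overlapped those of Gnat1, Gnb1, Sag and Gngt1. They also overlapped those of cone genes ranked below it, such as Arr3 and Gnb3, so the rank is not exact.

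The comparison of tHet with Cre- asked whether retinas with 1 floxed allele at each Tet gene differed from those with no Cre. By limma 0 of 9 members were called, and 0 had an unadjusted p under 0.05, likewise by edgeR and DESeq2 (background: 0.0422% of all genes called either way, and 4.55% with an unadjusted p under 0.05). The log2FC ran from -0.29 for Gnat1 (95% interval -1.24 to 0.66) to 0.29 for Cngb1 (95% interval -0.25 to 0.84), with a median of -0.04 beside 0.06 for all genes tested. Pde6a alone had each tHet library below each Cre- library, an order shared by 5.37% of genes, with a log2FC of -0.26 (95% interval -1.23 to 0.71). Within libraries, Pde6a to Pde6b was 1.197, 1.116 and 1.144 in tHet and Gnat1 to Gnb1 was 1.115, 1.001 and 1.115, both below the Cre- libraries, while Sag to Gnat1 was 0.807, 0.929 and 0.783 and above them (exact permutation p = 0.1 for each, adjusted p = 0.2 over 6 ratios). Of the 9 rod to cone ratios, Pde6a to Pde6c was also lower in every tHet library, at 24.4, 22.3 and 17.5 beside 28.7, 27.7 and 28.6 in Cre- (exact permutation p = 0.1, adjusted p = 0.643). These intervals leave room for changes of moderate size in either direction.

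Rods shut the response off and reset cGMP with further proteins, listed as shutoff and calcium feedback. Of 10 genes, 7 were called lower against Cre- (background 1.57%) and 6 against tHet (background 1.61%) by limma. Their median log2FC against Cre- was -1.72, beside 0.00 for all genes tested. Guca1b, a guanylate cyclase activator, had a log2FC of -2.77, and Slc24a1, the rod sodium, calcium and potassium exchanger, fell from between 2118 and 2480 CPM to between 210 and 760 CPM (log2FC -2.48). Grk1, the kinase that phosphorylates the pigment (log2FC -1.84), Gucy2f, a guanylate cyclase (-1.80), Rcvrn, the calcium sensor of that kinase (-1.73), Guca1a (-1.70) and Gnb5, partner of the transducin GTPase activator (-1.37), fell as well. Guca1a was not called against tHet, in which its mean was 2.35 CPM beside 1.45 CPM in Tet tcKO and 5.71 CPM in Cre-. The genes not called against Cre- were Rgs9, the GTPase activator itself (log2FC -0.25), Rgs9bp, its anchor (-1.01, limma adjusted p = 0.0246), and Gucy2e (-0.71).

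Among 7 genes of assembly and trafficking, 2 were called lower in both comparisons with Tet tcKO (background 1.57% against Cre- and 1.61% against tHet). Pdc, phosducin, which binds transducin beta-gamma, had a log2FC of -1.53, and Reep6, which serves vesicle traffic in rods, of -2.95. Aipl1, the chaperone of phosphodiesterase (log2FC -0.57), Unc119, which carries transducin alpha (-0.92, limma adjusted p = 0.0193), Pde6d, a carrier of prenylated proteins (0.22), Pdcl and Rd3 were not called against Cre-. Of 8 broadly expressed paralogs of the members, 1 was called, and higher: Gnb2, a transducin beta paralog, with a log2FC of 1.23 against Cre- (limma adjusted p = 0.00299). The background of genes called higher against Cre- was 2.03%. Gnb2 was at 54.6, 44.1 and 31.9 CPM in Tet tcKO, and its exons overlap those of another gene on its strand, whose reads the counting could have shared.

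Markers of other cells moved in the same libraries. Over all genes tested, 1.57% were called lower and 2.03% higher against Cre-, and 1.61% lower and 1.39% higher against tHet. Of 7 rod markers, 5 were called lower against Cre- (Nrl, Nr2e3, Esrrb, Pdc and Reep6) and 7 against tHet, Samd7 and Samd11 being added, and their sum ran from 5395 to 6208 CPM in Cre-, 4831 to 6141 in tHet and 1460 to 2100 in Tet tcKO. Cone markers were called higher for 4 of 7 genes in both comparisons (Arr3, Ccdc136, Opn1sw and Rxrg), and their sum was between 667 and 751 CPM in Cre-, 707 and 861 in tHet and 1889 and 2436 in Tet tcKO. These lists share genes with those above: Pdc and Reep6 with assembly and trafficking, and Arr3 and Pde6c with the cone counterparts. Pdc, with a mean of 3582 CPM in Cre-, made up most of the rod marker sum. Of 8 bipolar markers, Prkca and Trpm1 were called lower and Cabp5 higher against Cre-, and Cabp5 alone was called against tHet, with a sum from 1707 to 1994 CPM in Cre-, 1268 to 2008 in tHet and 1081 to 1900.0 in Tet tcKO. Of 6 Müller glia markers, Glul and Rlbp1 were called lower and Apoe higher (sum 1521 to 1927 CPM in Cre-, 1399 to 1740 in tHet and 1175 to 1418 in Tet tcKO). In the remaining lists, Slc6a9 (1 of 6 amacrine markers), Flt1 (1 of 4 endothelium markers) and Rpe65 (1 of 6 pigment epithelium markers) were called lower, Cx3cr1 (1 of 6 microglia markers) higher, and none of the ganglion and horizontal cell markers against Cre-. Against tHet, 3 of 6 pigment epithelium markers (Rpe65, Ttr and Tyr) and Sncg (1 of 5 ganglion cell markers) were called lower, as were Slc6a9 and Flt1, while Cx3cr1 was not called. Of 4 photoreceptor factors, Prdm1 was called higher, with a log2FC of 1.82 against Cre- and 1.73 against tHet. The microglia sum was between 19.7 and 28.5 CPM in Cre-, 27.6 and 38.4 in tHet and 32.3 and 63.8 in Tet tcKO. The pigment epithelium sum was between 39.5 and 139.8 CPM in Cre-, 99.7 and 128.6 in tHet and 30.1 and 43.7 in Tet tcKO, and the endothelium sum between 97.2 and 143.9, 111.3 and 133.5, and 33.2 and 70.6 CPM in the same order. No listed marker was at 0 in all libraries, and the part of other cell types in the fall of the cascade was not tested.

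The genes whose profile over the 9 libraries was most like that of the members were found by centring log2(CPM + 0.5) of each gene on its Cre- mean and taking the mean absolute difference from the median of the members' centred values, among 9377 genes with at least 10 CPM in Cre-. Nrl was closest, with a mean difference of 0.13, followed by Kcne2 (0.13), Cdr2 (0.15), Fscn2 (0.15) and C2cd6 (0.15). Grtp1 (0.17), Rom1 (0.19), Arl4d (0.20), Slc16a3 (0.21) and Fabp12 (0.23) completed the 10. Kcne2, for example, was at 43.8, 42.7 and 40.6 CPM in Cre- and at 4.34, 11.8 and 8.85 CPM in Tet tcKO. The authors count Kcne2 among the transcripts specific to mature cones. Rom1, an outer segment disc protein, was at 704, 668 and 626 CPM in Cre- and at 158, 231 and 144 CPM in Tet tcKO. These genes were ranked by their likeness over the same libraries, so their fall is a description and has no test here.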

How the data were processed

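RNA was measured in 9 whole-retina libraries from mice at P21, made from ribosome-depleted total RNA with a stranded kit and sequenced together. Reads were trimmed with Trim Galore 0.6.7 and aligned to mm10 with STAR 2.7.0f. They were sorted with SAMtools 1.9 and counted with HTSeq 0.11.2, and the authors scaled the counts to CPM (counts relative to the library total) with edgeR 4.2.2 in R 4.4.1. The annotation release and the strand and overlap settings are not given in the sources used here. The deposited CPM table also holds group means, fold changes and p-values of the authors' own comparisons, which were not used, and 0 columns of single libraries were left unmapped. All CPM values in every library (100%) were whole multiples of 1 read, within 0.01 of a read, so reads could be recovered. No library pair of a genotype was identical.

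The 21330 genes that reached 0.5 CPM in 3 or more libraries were fitted with limma 3.58.1 on log2(CPM + 0.5) over all 9 libraries, with a trended variance and Benjamini-Hochberg adjustment over all genes tested. Fold changes on this scale understate those of low genes. A gene was called at a log2FC of 1 or more in size and an adjusted p under 0.01, and the text says fell or rose of called genes only. Intervals are 95% intervals of the limma fit. Ratios within libraries were tested by two-sided exact permutation tests in scipy 1.17.1. The alternatives were edgeR 4.0.16 and DESeq2 1.42.0 on the recovered reads, other scalings, pseudocounts and filters, a replicate block, the 6 libraries of a comparison alone, an adjusted p under 0.05, and each library left out in turn. The fits were tested on simulated data. Positions and exon lengths came from GENCODE M21 (GRCm38), in which the exons of the members overlapped no other gene. Among the cone counterparts, exons of Pde6h overlapped those of Arhgdib and exons of Gngt2 those of Abi3, on the opposite strand. As the strand setting is not given, reads may be shared there.

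Nothing in the sources says that libraries of a genotype came from separate litters, so p-values measure the spread between these libraries. The text names all members, their cone counterparts, each gene called against Cre- of the 3 lists with a role in the cascade, reference factors, the Tet genes and the 10 genes with the most similar profile. Called marker genes were named after their values were seen. The members and lists were chosen with earlier results of these data known.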

Additional observations from a re-analysis of the deposited data

How the results depend on the processing

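The count of members called was 7 against Cre-, 7 against tHet and 0 for tHet against Cre- in the alternatives tried, except that without Tet tcKO replicate 3 it was 5 against tHet, Gnat1 and Pde6a being lost. The other values checked were the log2FCs of the members and the ratios within libraries. Of these, 936 counted as unchanged, 2 log2FCs lost their call and 7 log2FCs changed sign. A log2FC was unchanged if it kept its direction and side of the threshold. A ratio was unchanged if its difference moved by less than the larger SD of the genotypes compared. A ratio difference near 0 could thus change sign and count as unchanged. Counts over all genes moved more, and the cause was not tested. Against Cre- (768 called) they were 417 with no filter, 980 with the 6 libraries alone and 1145 by DESeq2. They were 1156 at an adjusted p under 0.05 and between 360 and 976 with a library left out. Against tHet (640 called) they were 351 with no filter, 1013 with the 6 libraries alone, 1046 by DESeq2, 1104 at an adjusted p under 0.05 and between 287 and 959 with a library left out. For tHet against Cre- (9 called) it was 1 with no filter, upper-quartile or TMM scaling, the 6 libraries alone, edgeR, or without CT010467.1, 40 by DESeq2, 20 at an adjusted p under 0.05 and between 0 and 17 with a library left out. Without CT010467.1 the calls were 613 higher and 222 lower against Cre- (434 and 334 otherwise) and 427 and 215 against tHet (297 and 343). Without Tet tcKO replicate 3 they were 331 and 99 against Cre- and 284 and 89 against tHet, without replicate 2 305 and 457, and 214 and 509, and without replicate 1 212 and 148, and 148 and 139.

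The libraries share only replicate numbers. Same-numbered libraries correlated between -0.35 and 0.56 in their deviations over 9 pairs. Of the 9 libraries, 3 correlated best with their own number in both other genotypes. A fit that took replicate number as a block called 1127 genes against Cre-, 1125 against tHet and 40 for tHet against Cre-. The count of members called remained 7, 7 and 0.

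Sign changes in the log2FC of a member occurred only in tHet against Cre-. The log2FC ranged from -0.033 to 0.41 for Gngt1, -0.21 to 0.12 for Pde6g and -0.013 to 0.113 for Sag with a library left out. For Sag it was -0.027 by TMM, -0.031 by edgeR and -0.036 by DESeq2. Depth did not limit the members, whose lowest value was 25.0 CPM against at most 0.104 CPM for 1 read.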

Other observations

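Guca1a, a guanylate cyclase activator, was low in both genotypes with Cre. Its level was 5.71, 5.22 and 6.21 CPM in Cre-, 2.59, 1.56 and 2.89 CPM in tHet and 1.72, 1.71 and 0.903 CPM in Tet tcKO. Each tHet library was below each Cre- library, an order that 5.37% of all genes tested had. The log2FC of tHet against Cre- was -1.16 (95% interval -1.85 to -0.46), which was not called (limma adjusted p = 0.511). Its neighbour in function, Guca1b, had a log2FC of -0.38 (95% interval -1.13 to 0.37) in the same comparison.

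Nr2e3 was above all Cre- libraries in each tHet library, at 377, 355 and 383 CPM beside 215, 322 and 277 CPM, without being called (log2FC 0.47, 95% interval -0.07 to 1.02, limma adjusted p = 0.9998). The share of all genes with each tHet library above each Cre- library is not given here, so this order of Nr2e3 has no background beside it. The opposite order, each tHet library below each Cre- library, was shared by 5.37% of all genes tested.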
